A study of Mus musculus with 24 samples.

Results

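The 38 transcripts described here encode plasma proteins of coagulation, fibrinolysis and the complement system that hepatocytes secrete. They were taken by gene symbol from a table of 24532 genes, and all 38 were found. The table comes from a study of mice whose hepatocytes lack *Crif1* (listed as *Gadd45gip1*), a factor needed for translation of the mitochondrially encoded subunits of oxidative phosphorylation. RNA of liver, inguinal white adipose tissue (iWAT), gastrocnemius muscle (GM) and hypothalamus was sequenced from Ctrl mice, of genotype Crif1flox/flox, and from LKO mice, of genotype Alb-Cre;Crif1flox/flox. All were 8 weeks old and on the C57BL/6 background, and each genotype had 3 libraries in each tissue, 24 in all. The 2 groups thus share the floxed allele and differ in the Cre, which the albumin promoter drives in hepatocytes. The Ctrl mice carry no Cre, so that Cre expression and the loss of *Crif1* cannot be told apart.

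In blood clotting, tissue factor and factor VII, or contact with a surface through factor XII, prekallikrein, kininogen and factor XI, lead to factor X, which together with factor V turns prothrombin into thrombin. Thrombin then cuts fibrinogen into fibrin, which plasmin later dissolves. In the complement system, the C1 proteases or the mannose-binding lectins and their MASP proteases start a cascade through C4 and C2 to C3, factor B amplifies it, and C6, C8 and C9 take part in the pore that ends it. Hepatocytes make most of these proteins, and several, fibrinogen and C3 among them, are known to rise in the acute-phase response.

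The values are FPKM, in which the fragments of a gene are divided by its length and by the size of the library, so that levels can be compared between genes. Depth, from the ratio of FPKM to coverage, was 5.42 to 8.09 gigabases in the Ctrl livers and 4.7 to 5.54 gigabases in the LKO livers. *Gadd45gip1* was 14.6, 12.5 and 13.6 FPKM in Ctrl livers 1 to 3, and 5.40, 2.0 and 2.51 FPKM in LKO livers 1 to 3. The LKO group was thus below the Ctrl group in every library, with LKO 1 the highest of its group. Differences between groups were tested with limma on log2(FPKM + 1), and a transcript is said here to have changed, risen or fallen when its Benjamini-Hochberg adjusted p over all 10956 genes tested in liver was under 0.05. It is not stated which libraries of different tissues share a mouse. The limma p-values rest on a spread between libraries that is pooled over both groups, of 3 libraries each, and drawn towards that of other genes.

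All 38 transcripts were abundant in the Ctrl livers, with means from 29.1 FPKM (*Masp1*) to 2788 FPKM (*Fgb*) and a median of 248 FPKM. The summed FPKM of the 38 made up 3.24%, 3.65% and 3.42% of the library total in the Ctrl livers, and 4.13%, 2.93% and 2.30% in LKO 1 to 3. The LKO livers thus lay on both sides of the Ctrl livers, and their mean share of 3.12% ± 0.928 did not differ from the 3.44% ± 0.204 of Ctrl (SD, n = 3 each) beyond the spread (exact permutation test, two-sided, p = 0.6). Of 8 other hepatocyte transcripts, *Alb* among them, 1 rose (*Ahsg*) and 1 fell (*Serpina1c*), and their summed level was 67692 to 71422 FPKM in Ctrl livers and 56574 to 83209 FPKM in LKO livers. After scaling each library by its median ratio to the geometric mean of the livers, 0 rose and 1 fell, *Ahsg* being at 0.24 on the log2 scale (limma adjusted p = 0.427), and the summed levels were 77089 to 83812 in Ctrl and 42227 to 81990 in LKO livers. In bulk tissue, fewer cells of a type and less RNA per cell cannot be told apart.

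In liver 14 of the 38 transcripts fell in LKO mice, where 5.49% of all tested genes did, and 2 rose, *C4bp* and *Mbl2*, where 38.3% of all tested genes did. The other 22 did not pass the test. The fold changes of 31 of the 38 were below 0, as were those of 18.5% of all tested genes. The median log2 fold change was -0.38 over the 38 transcripts and 0.33 over all tested genes. Among the 2143 genes with a mean at or above that of the least abundant member, the median was 0.22, with 13.4% of them lower and 34.2% higher. All LKO livers were below all Ctrl livers for 21 of the 38 (8.1% of all tested genes), and all were above for 2 (53% of all tested genes). A fall of at least 1.5-fold that also passed the adjusted test was seen for 10 of the 38 and for 3.5% of all tested genes.

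Since the median of all tested genes was shifted upward, the same comparison was made after median-ratio scaling, which divides each library by the median of its ratios to the geometric mean of all 6 livers. The divisors were 0.852 to 0.878 for the Ctrl livers, and 1.01, 1.19 and 1.34 for LKO 1 to 3, and they brought the median over all tested genes to -0.05. On that scale 22 of the 38 transcripts were lower (18% of all tested genes) and 0 were higher (14.8% of all tested genes), and the median over the 38 was -0.83. A fall of at least 1.5-fold that passed the test was seen for 20 of the 38 (8.59% of all tested genes). The fold changes of 37 were below 0, against 55.4% of all tested genes, the exception being *Mbl2* at 0.05. All LKO livers were below all Ctrl livers for 28 of the 38 on that scale (29.8% of all tested genes). The 14 transcripts that fell on the deposited scale were also lower after scaling. The 8 that passed the test only after scaling were *F2*, *F10*, *F12*, *F13b*, *Cpb2*, *C2*, *Masp1* and *Serping1*. The plot of both scales shows each transcript with its standard error.

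**Figure D1:**
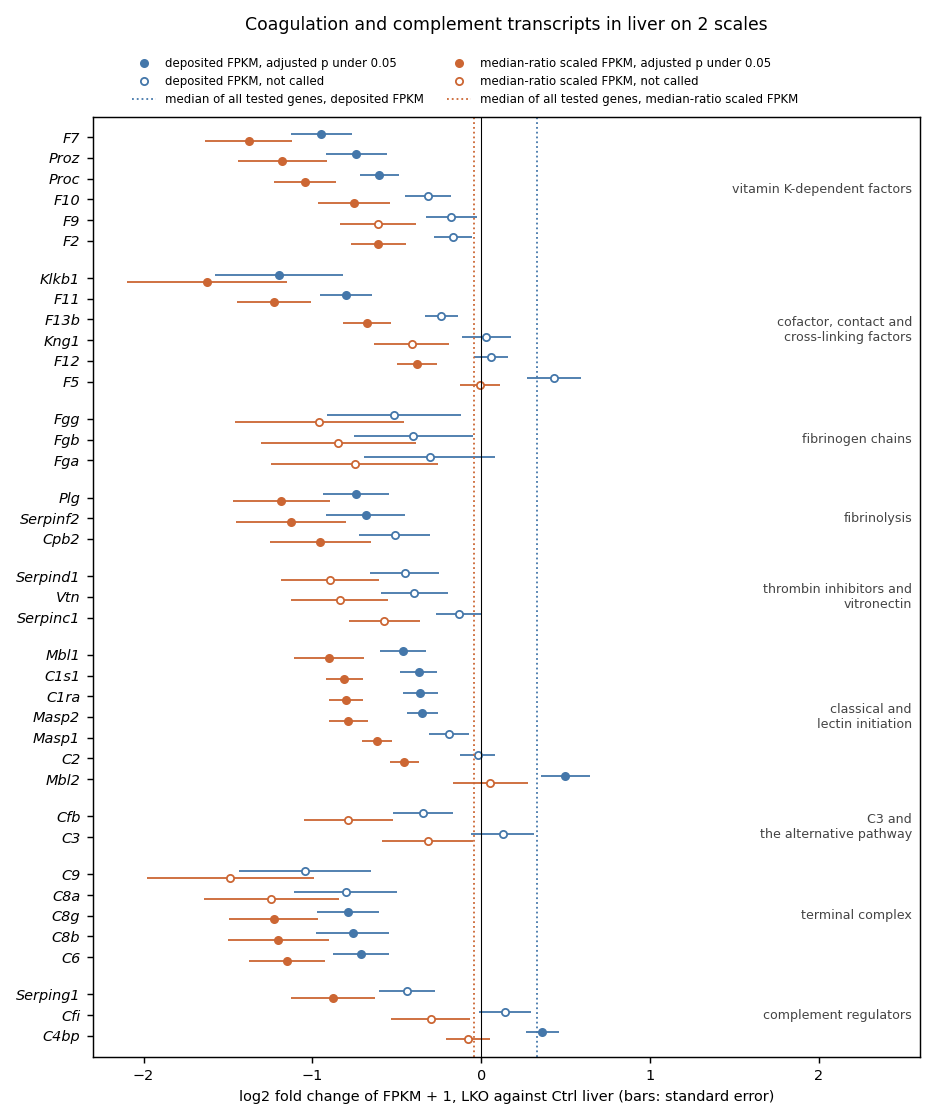
Log2 fold change of FPKM + 1 in liver, LKO against Ctrl (3 libraries each), for the 38 transcripts in order of their role, on the deposited scale (blue) and after median-ratio scaling (orange). Bars are standard errors, filled points passed the adjusted test, and dotted lines mark the medians of all tested genes at 0.33 and -0.05. Most points lie left of their own dotted line, with *Klkb1* and *C9* farthest to the left.

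The 3 LKO livers were not alike. LKO 3 had the lowest value of the 3 for 30 of the 38 transcripts, and LKO 1 the highest for 28, where 15.2% and 17.4% of all tested genes did. After scaling the counts were 36 and 35, against 41.4% and 44.8% of all tested genes. The coefficient of variation had a median of 19.4% over the 38 transcripts in LKO livers (1.44% to 62.2%) and of 4.28% in Ctrl livers (1.41% to 12.6%). It was larger in LKO than in Ctrl livers for 36 of the 38 and for 77.1% of all tested genes. The limma test takes the spread of both groups as equal, which limits its p-values here. Without LKO 1, 27 of the 38 transcripts fell and 3 rose. Without LKO 2, 4 fell, and without LKO 3, 9 fell. Without Ctrl 1, Ctrl 2 or Ctrl 3 the numbers that fell were 4, 3 and 3. The shares of all tested genes that fell or rose in these fits were not computed, so that the counts do not set the members apart. *F7*, *F11* and *Proc* passed the test whichever library was left out. Over 14 alternative fits the largest adjusted p from limma was 0.0366 for *F7*, 0.0408 for *F11* and 0.0563 for *Proc*. Of the other transcripts that fell, *C6* passed in 12 of the 14, *Proz*, *C8b* and *C8g* in 10, *Plg* and *Mbl1* in 8, *Klkb1*, *C1ra*, *C1s1* and *Masp2* in 7 and *Serpinf2* in 4. Of those that rose, *Mbl2* passed in 7 and *C4bp* in 6.

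**Figure D2:**
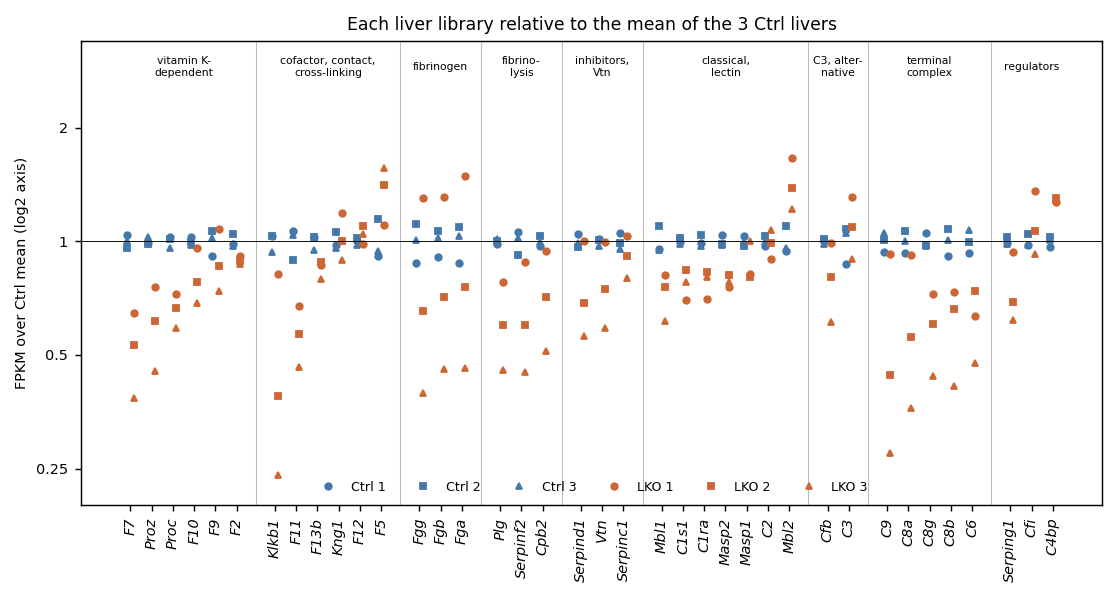
FPKM of each of the 38 transcripts in each liver library, divided by the mean of the 3 Ctrl livers (log2 axis), ordered by role. Blue marks are Ctrl livers and orange marks LKO livers, with a circle, square and triangle for replicates 1, 2 and 3. The Ctrl marks stay close to 1 while the LKO marks spread, from 0.482 on average for *Klkb1* to 1.42 on average for *Mbl2*.

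The vitamin K-dependent factors are proteases or cofactors that need carboxylated glutamates to bind membranes. Of the 6, 3 fell and 3 did not pass the test. *F7*, the protease that tissue factor activates, was 56.2, 51.6 and 53.8 FPKM in Ctrl livers and 34.8, 28.5 and 20.7 FPKM in LKO livers. The groups did not overlap, and the mean went from 53.9 ± 2.25 to 28.0 ± 7.08 FPKM (SD, n = 3 each), a log2 fold change of -0.95 with a standard error of 0.18 (limma adjusted p = 0.00812). *Proc*, the precursor of the anticoagulant protein C, was 350, 347 and 328 FPKM in Ctrl livers and 247, 227 and 201 FPKM in LKO livers. It fell by 0.60 on the log2 scale (standard error 0.12, limma adjusted p = 0.00845), again without overlap. *Proz*, whose product helps a serpin to inhibit factor Xa, fell by 0.74 (limma adjusted p = 0.0184).

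*F10*, which lies 1502 bases downstream of *F7* on chromosome 8 with *Proz* as the next gene, was 140, 136 and 133 FPKM in Ctrl livers and 131, 106 and 93.4 FPKM in LKO livers. All LKO livers were lower, but its log2 fold change of -0.32 did not pass the test on the deposited scale (limma adjusted p = 0.0939), and after scaling it was -0.76 (limma adjusted p = 0.0369). *F2*, encoding prothrombin, was -0.17 on the deposited scale (limma adjusted p = 0.245) and -0.61 after scaling (limma adjusted p = 0.0301). *F9*, encoding the protease lacking in haemophilia B, had overlapping groups and was -0.18 on the log2 scale (limma adjusted p = 0.348).

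Of the 6 cofactor, contact and cross-linking factors 2 fell and 0 rose. *Klkb1*, encoding prekallikrein, had the largest fall of the 38. It was 66.6, 66.8 and 60.5 FPKM in Ctrl livers and 52.9, 25.1 and 15.6 FPKM in LKO livers, so that LKO 1 lay near the Ctrl livers and LKO 3 far below. Its log2 fold change was -1.20 (standard error 0.38, limma adjusted p = 0.039), -1.66 without LKO 1 and -0.81 without LKO 3 (limma adjusted p = 0.0729). *F11*, its neighbour on chromosome 8 at 4656 bases, encodes the protease that activates factor IX. It was 47.7, 40 and 46.6 FPKM in Ctrl livers and 30.2, 25.4 and 20.8 FPKM in LKO livers, without overlap and with a narrower spread. It fell by 0.80 on the log2 scale (standard error 0.15, limma adjusted p = 0.00814).

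*F5*, encoding the cofactor of factor Xa, was 61.3, 76.8 and 63.2 FPKM in Ctrl livers and 74.2, 94.9 and 105 FPKM in LKO livers. It is the transcript of this group with the highest fold change, 0.43 on the log2 scale (limma adjusted p = 0.0594), its groups overlapped, and after scaling the value was -0.0069. *F12*, which encodes the protease of surface contact, was 241, 244 and 234 FPKM in Ctrl livers and 237, 263 and 250 FPKM in LKO livers. These values overlapped, and their log2 fold change of 0.06 (limma adjusted p = 0.636) turned to -0.38 after scaling (limma adjusted p = 0.0485). *Kng1*, encoding kininogen, changed sign in the same way, from 0.03 to -0.41, without passing the test on either scale. Its copy *Kng2* can share its reads, and the sum of both averaged 949 FPKM in the Ctrl group and 1011 FPKM in the LKO group, with overlap. *F13b*, which encodes the carrier subunit of the fibrin cross-linking enzyme, was -0.24 (limma adjusted p = 0.0808) and -0.67 after scaling (limma adjusted p = 0.0156).

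The upstream sequence is shown for *F7* and *F11*, since their fall passed the test in all 14 alternative fits. The RefSeq promoter table for build GRCm38.p6 held windows for 30 of the 38 genes. The 150 bases before the start of *F7* lie at chr8:13025884-13026033 on the plus strand, and those of *F11* at chr8:45262032-45262181 on the minus strand. Each is written in the direction of transcription, and capitals mark a match to the C/EBP motif TTGCNNAA on either strand.
F7: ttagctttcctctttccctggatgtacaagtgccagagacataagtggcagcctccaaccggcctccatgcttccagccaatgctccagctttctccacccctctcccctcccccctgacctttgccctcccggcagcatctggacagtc
F11: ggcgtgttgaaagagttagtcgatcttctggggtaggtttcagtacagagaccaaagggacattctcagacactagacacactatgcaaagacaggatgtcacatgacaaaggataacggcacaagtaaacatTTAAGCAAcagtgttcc
*F11* held this motif 17 bases before its start, and *F7* held none of the 3 motifs searched in these 150 bases. The motifs were TTGCNNAA for C/EBP, TTCNNNGAA for STAT factors and CAAAGTCCA for HNF4, each searched on both strands of the 250 bases before the start. In the order given they were found in 8, 5 and 0 of the 30 members with a window, which is 26.7%, 16.7% and 0%. Of all 27025 genes with a window, 10.8%, 8.13% and 0.451% held them. A gene with several windows was counted when any of its windows held the motif. Only these letters were matched, so that a site with other letters is missed. The lack of a match thus does not show the lack of a binding site.

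Fibrinogen is assembled from the products of *Fga*, *Fgb* and *Fgg*, which lie side by side on chromosome 3. *Fga* was 1268, 1582 and 1498 FPKM in Ctrl livers and 2161, 1097 and 670 FPKM in LKO livers. *Fgb* was 2540, 2973 and 2852 FPKM in Ctrl livers and 3652, 1986 and 1282 FPKM in LKO livers. *Fgg* was 1805, 2292 and 2073 FPKM in Ctrl livers and 2679, 1341 and 816 FPKM in LKO livers. For all 3 chains LKO 1 was above every Ctrl liver while LKO 2 and LKO 3 were below every Ctrl liver. The log2 fold changes of -0.31, -0.40 and -0.52 did not pass the test (limma adjusted p = 0.522, 0.359 and 0.3). Without LKO 1 they were -0.75, -0.80 and -0.97 (limma adjusted p = 0.0133, 0.00731 and 0.00471). Without LKO 3 they were 0.09, -0.05 and -0.11, so that *Fga* turned.

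A ratio of a pair of transcripts within a library does not depend on the scaling between libraries. The ratio of *Fga* to *Fgg* was 0.702, 0.690 and 0.722 in Ctrl livers and 0.807, 0.818 and 0.821 in LKO livers. It was thus higher in every LKO liver, with means of 0.705 ± 0.0164 and 0.815 ± 0.00752 (SD, n = 3 each), although the chains themselves varied over a wide range there. The exact permutation test gave p = 0.1, the smallest that 3 against 3 allows, and 0.2 after adjustment over the 10 ratios computed. The ratio of *Fgb* to *Fgg* overlapped between the groups, with means of 1.36 in Ctrl and 1.47 in LKO livers (exact permutation test, p = 0.3).

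The upstream sequences of the 3 chains are given because their transcripts varied together. They lie at chr3:83026003-83026152 on the plus strand for *Fga*, at chr3:83049864-83050013 on the minus strand for *Fgb* and at chr3:83007574-83007723 on the plus strand for *Fgg* (RefSeq, GRCm38.p6). Capitals mark matches to the C/EBP motif TTGCNNAA on either strand.
Fga: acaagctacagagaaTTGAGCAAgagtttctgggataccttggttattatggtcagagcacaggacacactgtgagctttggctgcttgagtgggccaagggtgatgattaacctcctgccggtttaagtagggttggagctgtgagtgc
Fgb: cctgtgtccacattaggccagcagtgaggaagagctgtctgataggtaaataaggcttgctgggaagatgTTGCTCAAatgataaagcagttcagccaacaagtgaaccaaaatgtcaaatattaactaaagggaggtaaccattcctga
Fgg: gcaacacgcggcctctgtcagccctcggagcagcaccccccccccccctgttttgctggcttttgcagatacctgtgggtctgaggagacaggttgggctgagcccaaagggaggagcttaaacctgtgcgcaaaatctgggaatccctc
*Fga* held the motif 135 bases and *Fgb* 80 bases before the start, while these letters are not in the window of *Fgg*.

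Of the 3 transcripts of fibrinolysis, *Plg* and *Serpinf2* fell. *Plg*, the precursor of plasmin, was 927, 943 and 958 FPKM in Ctrl livers and 734, 566 and 430 FPKM in LKO livers. It fell by 0.74 on the log2 scale (standard error 0.20, limma adjusted p = 0.0234) without overlap. *Serpinf2*, encoding the inhibitor of plasmin, fell by 0.68, close to the threshold (limma adjusted p = 0.0487). With TPM it did not pass (limma adjusted p = 0.0655). The ratio of *Plg* to *Serpinf2* overlapped between the groups, at 2.08 ± 0.167 in Ctrl and 2.0 ± 0.148 in LKO livers (SD, n = 3 each, exact permutation test, p = 0.7). *Cpb2*, whose product protects fibrin from plasmin, was lower in every LKO liver by a log2 value of -0.51 (limma adjusted p = 0.0794), and of -0.95 after scaling (limma adjusted p = 0.0495).

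Of the inhibitors of thrombin and *Vtn*, 0 of 3 passed the test on either scale, and limma gave 0 of the 3 an unadjusted p under 0.05 on the deposited scale. *Serpinc1*, encoding antithrombin, was 995, 940 and 905 FPKM in Ctrl livers and 977, 868 and 759 FPKM in LKO livers. The groups overlapped, and the difference of -0.13 on the log2 scale did not pass the test (limma adjusted p = 0.441). The ratio of *Proc* to *Serpinc1* was 0.352, 0.369 and 0.362 in Ctrl livers and 0.253, 0.262 and 0.265 in LKO livers, without overlap (exact permutation test, p = 0.1, adjusted p = 0.2). *Serpind1*, encoding heparin cofactor II, and *Vtn*, encoding vitronectin, had log2 fold changes of -0.45 and -0.40 (limma adjusted p = 0.101 and 0.135), and for both LKO 1 lay within the range of the Ctrl livers.

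Among the 7 transcripts that start the classical and lectin pathways, 4 fell and 1 rose. *C1ra* and *C1s1*, neighbours on chromosome 6 that encode the proteases of C1, fell by 0.36 and 0.37 on the log2 scale (limma adjusted p = 0.0311 and 0.0299), and neither passed with TPM (limma adjusted p = 0.0933 and 0.0838). *C1s1* was 181, 185 and 179 FPKM in Ctrl livers and 127, 153 and 142 FPKM in LKO livers, so that here LKO 1 was the lowest. The ratio of *C1ra* to *C1s1* was 0.659 ± 0.0133 in Ctrl and 0.663 ± 0.0132 in LKO livers (SD, n = 3 each, exact permutation test, p = 0.6). Reads of *C1ra* can be split with its copy *C1rb*, which was 31.8, 33.7 and 31.0 FPKM in Ctrl livers, 23.1 FPKM in LKO 1 and listed at 0 in LKO 2 and LKO 3. The sum of *C1ra* and *C1rb* was 152 FPKM in Ctrl and 101 FPKM in LKO livers, also without overlap. *Masp2*, encoding the protease that cuts C4 and C2, fell by 0.35 (limma adjusted p = 0.0244, with TPM 0.0725), and its span overlaps *Tardbp* on the opposite strand, whose reads cannot be told apart in unstranded libraries. *Masp1*, encoding the protease that activates MASP-2, was -0.19 (limma adjusted p = 0.201) and -0.62 after scaling (limma adjusted p = 0.00479). *C2*, encoding the protease of the C3 convertase, was -0.02 (limma adjusted p = 0.878) and -0.45 after scaling (limma adjusted p = 0.0102).

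The mannose-binding lectins moved apart. *Mbl1* was 182, 209 and 181 FPKM in Ctrl livers and 155, 144 and 117 FPKM in LKO livers. *Mbl2* was 237, 276 and 241 FPKM in Ctrl livers and 418, 347 and 305 FPKM in LKO livers. Every LKO liver was lower for the former and higher for the latter, with log2 fold changes of -0.46 (standard error 0.14, limma adjusted p = 0.0318) and 0.50 (standard error 0.15, limma adjusted p = 0.0314). After scaling they were -0.90 (limma adjusted p = 0.0197) and 0.05 (limma adjusted p = 0.868), so that the rise of *Mbl2* depends on the scale. Their ratio does not depend on it and was 0.769, 0.758 and 0.751 in Ctrl livers and 0.371, 0.414 and 0.384 in LKO livers. This is a log2 difference of -0.96 with a standard error of 0.05, the largest of the 10 ratios (exact permutation test, p = 0.1, adjusted p = 0.2). The upstream windows of this pair are shown to compare both genes, at chr14:41151306-41151455 and chr19:30232778-30232927 (RefSeq, GRCm38.p6, plus strand). Capitals mark the longest run of bases that both windows share, of 13 bases.
Mbl1: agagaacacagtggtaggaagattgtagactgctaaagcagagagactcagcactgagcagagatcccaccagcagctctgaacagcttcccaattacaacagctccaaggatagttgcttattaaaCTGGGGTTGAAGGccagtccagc
Mbl2: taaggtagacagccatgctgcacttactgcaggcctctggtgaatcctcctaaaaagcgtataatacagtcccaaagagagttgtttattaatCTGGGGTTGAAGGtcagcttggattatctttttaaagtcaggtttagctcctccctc
The run lies 23 to 11 bases before the start of *Mbl1* and 57 to 45 bases before that of *Mbl2*. RefSeq places the start of *Mbl2* upstream of the start in the deposited tables. These windows held none of the 3 motifs.

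*C3*, the centre of the complement cascade, was 1565, 1939 and 1885 FPKM in Ctrl livers and 2358, 1960 and 1612 FPKM in LKO livers. The groups overlapped, at 0.13 on the log2 scale (limma adjusted p = 0.58) and at -0.32 after scaling (limma adjusted p = 0.391). *Cfb*, encoding factor B of the alternative pathway, was 428, 434 and 422 FPKM in Ctrl livers and 424, 345 and 261 FPKM in LKO livers. LKO 1 lay within the Ctrl range and the log2 fold change of -0.34 did not pass the test (limma adjusted p = 0.145). *Cfi*, encoding the protease that cuts C3b, was 238, 256 and 239 FPKM in Ctrl livers and 332, 260 and 227 FPKM in LKO livers, with overlap and a difference of 0.14 on the log2 scale (limma adjusted p = 0.458), or -0.30 after scaling (limma adjusted p = 0.349). The ratio of *Cfb* to *Cfi* was 1.80, 1.69 and 1.77 in Ctrl livers and 1.28, 1.33 and 1.15 in LKO livers, lower in every LKO liver (exact permutation test, p = 0.1, adjusted p = 0.2).

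All 5 transcripts of the terminal complex were lower in every LKO liver than in every Ctrl liver, and 3 of them passed the test. *C8g*, encoding the gamma chain of C8, was 310, 289 and 287 FPKM in Ctrl livers and 214, 179 and 130 FPKM in LKO livers. It fell by 0.79 on the log2 scale (standard error 0.18, limma adjusted p = 0.0154), and its span overlaps *Fbxw5* on the opposite strand. *C8b* fell by 0.76 (limma adjusted p = 0.0278) and *C6* by 0.71 (limma adjusted p = 0.0162). *C8a* was 253, 290 and 272 FPKM in Ctrl livers and 250, 151 and 98.4 FPKM in LKO livers. *C9*, encoding the subunit that polymerises into the pore, was 368, 396 and 412 FPKM in Ctrl livers and 363, 173 and 108 FPKM in LKO livers. For both, LKO 1 reached nearly the lowest Ctrl liver. Their log2 fold changes of -0.80 and -1.05, larger than those of *C6* and *C8b*, did not pass the test (limma adjusted p = 0.065 and 0.0622), and without LKO 1 they were -1.15 and -1.51 (limma adjusted p = 7.97e-04 and 3.24e-04). The ratios of *C8a* and of *C8g* to *C8b* overlapped between the groups, with *C8a* to *C8b* at 1.54 in LKO 1 against 1.03 and 1.07 in the other LKO livers.

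Of the regulators, *C4bp*, encoding a subunit of the C4b-binding protein, was 268, 286 and 280 FPKM in Ctrl livers and 353, 363 and 357 FPKM in LKO livers. It rose by 0.36 on the log2 scale (standard error 0.10, limma adjusted p = 0.0253) with the LKO livers closer to each other than for any other transcript of the 38. After scaling its log2 fold change was -0.08 (limma adjusted p = 0.661). *Serping1*, encoding the C1 inhibitor that also blocks kallikrein and factor XIIa, was lower in every LKO liver, at -0.44 (limma adjusted p = 0.0649) and at -0.88 after scaling (limma adjusted p = 0.037).

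Across the roles, 5 of the 10 ratios did not overlap between the groups. The share for ratios of other gene pairs was not computed, so that this count does not set these pairs apart. Besides those of *Fga* to *Fgg*, *Proc* to *Serpinc1*, *Mbl1* to *Mbl2* and *Cfb* to *Cfi*, this was the ratio of the neighbours *F7* and *F10*. It was 0.402, 0.380 and 0.405 in Ctrl livers and 0.266, 0.269 and 0.221 in LKO livers (exact permutation test, p = 0.1, adjusted p = 0.2). No ratio had an adjusted p under 0.05, which 3 libraries against 3 cannot reach.

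**Figure D3:**
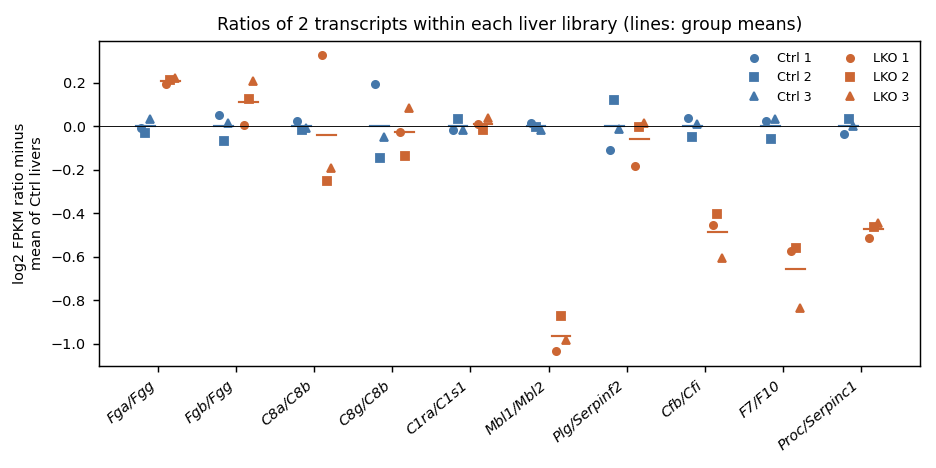
Log2 ratio of the FPKM of a pair of transcripts within each liver library, minus the mean of the 3 Ctrl livers, for the 10 ratios computed. Circles, squares and triangles are replicates 1, 2 and 3 of Ctrl (blue) and LKO (orange), and lines are group means. The ratio of *Mbl1* to *Mbl2* lies lowest, at -0.96, and that of *C1ra* to *C1s1* stays at 0.01.

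Further genes of these pathways were taken from 2 written lists. Of 22 tested other coagulation genes 3 fell and 7 rose, where 5.49% and 38.3% of all tested genes did, with a median log2 fold change of 0.31, near the 0.33 of all tested genes. *Serpine2*, a protease inhibitor, fell by 1.17, *Hrg*, encoding histidine-rich glycoprotein, by 0.64, and *Vkorc1*, the vitamin K reductase, by 0.53 on the log2 scale (limma adjusted p = 0.0106, 0.0186 and 0.0148). The largest rises were those of *Anxa2* and *S100a10*, which form a receptor for plasminogen, at 3.29 and 1.38, of *Plau*, the urokinase that activates plasminogen, at 0.89, and of *Vkorc1l1*, a paralogue of the vitamin K reductase, at 0.46 (limma adjusted p = 7.29e-04, 0.00875, 0.00151 and 0.0146). After scaling 2 of 21 rose and 4 fell, against 14.8% and 18% of all tested genes. *Vkorc1l1* did not pass the test on that scale, at 0.07 (limma adjusted p = 0.629), and *Plau* was too low there to be tested.

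Of 28 tested other complement genes 5 fell and 13 rose, again beside 5.49% and 38.3% of all tested genes, with a median of 0.31. After scaling 8 fell and 10 rose, beside 18% and 14.8%. *C1rl*, encoding a C1r-like protease, fell by 0.67 on the log2 scale and *Cfhr2*, related to factor H, by 0.43 (limma adjusted p = 0.0108 and 0.0337). *C1rb* also passed the test (limma adjusted p = 0.0418), but its size of change rests on the 2 LKO livers in which it is listed at 0, and its reads can be split with *C1ra*. After scaling *C1rb* did not pass the test (limma adjusted p = 0.0511). The largest rises belonged to genes of macrophages and other leukocytes, *Itgb2* (1.42), *Vsig4* (1.33), *C1qc* (1.3) and *C1qa* (1.15), each with a limma adjusted p of at most 0.0024. Beside this, 5 of 5 Kupffer cell markers, one of them *Vsig4* itself, rose. Their summed levels were 93.4 to 97.5 FPKM in Ctrl livers and 205 to 326 FPKM in LKO livers. No marker was under 0.1 FPKM in every liver. The 4 monocyte markers summed to 0.565 to 0.838 FPKM in Ctrl and 2.6 to 5.11 FPKM in LKO livers, with 0 of 4 abundant enough to be tested. The 4 neutrophil markers summed to 1.01 to 1.60 FPKM and 7.74 to 9.75 FPKM, and 2 of 2 tested rose. Rises were also seen for 5 of 5 stellate cell markers (77.7 to 89.1 against 185 to 207 FPKM), 2 of 5 endothelial markers (87.1 to 92.2 against 98.7 to 156 FPKM), 4 of 4 tested cholangiocyte markers (2.65 to 3.38 against 7.56 to 11.4 FPKM, *Cftr* being under 0.1 FPKM) and 2 of 2 tested platelet markers (1.43 to 1.86 against 3.21 to 4.37 FPKM). Of 4 tested red cell markers 0 passed the test (1 was lower after scaling), of 4 tested muscle markers 0 did, the 1 tested adipocyte marker rose and the 1 tested neuron marker fell. After scaling 5 of 5 Kupffer cell markers, 2 of 2 neutrophil markers and 4 of 4 cholangiocyte markers were still higher, as were 3 of 5 stellate cell and 1 of 2 platelet markers. Of the endothelial markers 2 of 5 were higher on that scale, but their summed level overlapped, at 102 to 105 in Ctrl and 97.2 to 117 in LKO livers. The part of these cells in the fall of the 14 hepatocyte transcripts was not tested.

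Of 17 transcription factors of hepatocytes, 2 fell and 1 rose on the deposited scale (5.49% and 38.3% of all tested genes), and 4 fell and 0 rose after scaling (18% and 14.8%). *Nr0b2*, a corepressor of bile acid synthesis, fell by 1.39 and *Cebpa*, a factor of the C/EBP family, by 0.89 on the log2 scale (limma adjusted p = 0.0451 and 0.00737). *Stat3*, which acts downstream of interleukin 6, rose by 0.69 (limma adjusted p = 0.00432) and was 0.26 after scaling (limma adjusted p = 0.261). *Hnf4a* was at -0.07 on the log2 scale and at -0.51 after scaling, and did not pass the test on either scale (limma adjusted p = 0.711 and 0.0991). Whether these factors act on the 38 genes was not tested.

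Outside the liver, most of the 38 transcripts were near the limit of detection. The mean of the Ctrl libraries reached 1 FPKM for 10 of them in iWAT, 17 in GM and 10 in hypothalamus, and 5 FPKM for 8, 7 and 3. In Ctrl iWAT 13 were listed at 0 in every library, against 0 in GM and 2 in hypothalamus. In 1 limma fit of all 24 libraries, 34 of 38 were lower in Ctrl iWAT than in Ctrl liver (13.6% of 15794 tested genes), 38 in Ctrl GM (29.1%) and 38 in Ctrl hypothalamus (17.4%). Higher than in liver were 1 of 38 in iWAT, *C2* (64.4% of all tested genes), 0 in GM (39.8%) and 0 in hypothalamus (68.7%). Median-ratio scaling of all 24 libraries, whose divisors were 0.635 to 0.651 in Ctrl liver and 1.2 to 1.26 in Ctrl iWAT, gave 37 lower in iWAT.

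**Figure D4:**
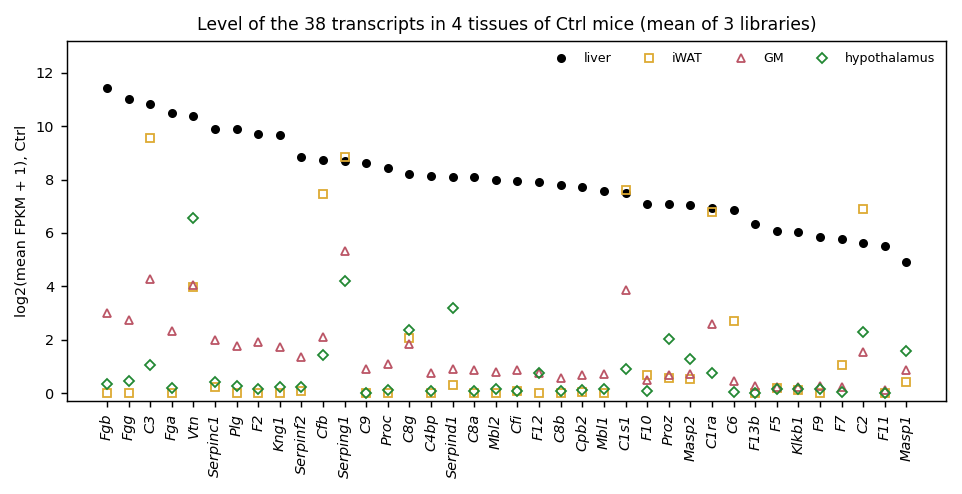
Level of the 38 transcripts in the Ctrl mice of each tissue, as log2 of the mean FPKM of 3 libraries plus 1, in order of their level in liver. Filled circles are liver, and open squares, triangles and diamonds are iWAT, GM and hypothalamus. A small set of complement transcripts in iWAT reaches the level of liver in deposited FPKM, and *C2* lies above it.

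The complement transcripts *Serping1*, *C1s1*, *C1ra* and *C2* were in iWAT at levels near or above those of liver in deposited FPKM. *C2* was 103, 118 and 129 FPKM in Ctrl iWAT and 48 ± 1.48 FPKM in Ctrl liver (SD, n = 3), so that iWAT held 243% of the liver mean (limma adjusted p = 1.55e-05 over all genes). *Serping1* at 455 ± 80.6 FPKM, *C1s1* at 195 ± 24.5 FPKM and *C1ra* at 108 ± 14.4 FPKM were at 109%, 107% and 90.5% of liver, and did not differ from it beyond the spread (limma adjusted p = 0.572, 0.504 and 0.302). After median-ratio scaling *C2* did not pass the test against liver, at 0.32 on the log2 scale (limma adjusted p = 0.158), and *Serping1*, *C1s1* and *C1ra* were lower in iWAT, at -0.84, -0.85 and -1.09 (limma adjusted p = 4.77e-04, 3.09e-08 and 5.23e-09). *C3*, at 750 ± 106 FPKM, and *Cfb*, at 173 ± 14.8 FPKM, reached 41.7% and 40.5% of the liver mean. *Vtn* was 14.7 ± 1.07 FPKM and *C6* 5.54 ± 1.48 FPKM (SD, n = 3). Of the 9 members tested between LKO and Ctrl iWAT, 0 passed the adjusted test in limma, as did 0% of all tested genes. At an unadjusted p under 0.05, 3 of 9 passed (15% of all tested genes), *C3* at -0.42, *Cfb* at -0.41 and *C1ra* at -0.30 on the log2 scale (limma adjusted p = 0.293, 0.185 and 0.304).

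In hypothalamus *Vtn* was 92.2 ± 26.7 FPKM, *Serping1* 17.3 ± 3.62 FPKM and *Serpind1* 8.22 ± 1.95 FPKM in Ctrl mice (SD, n = 3). The span of *Serpind1* overlaps *Pi4ka* on the opposite strand, and reads of both cannot be told apart in unstranded libraries. Of 10 members tested there, 0 passed the adjusted test in limma (0.0217% of all tested genes), and 1, *Serpind1* at -0.42 on the log2 scale, had an unadjusted p under 0.05 (3.72% of all tested genes, limma adjusted p = 0.999).

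In GM, *Serping1* was 39.3 ± 1.74 FPKM, *C3* 18.6 ± 3.69 FPKM, *Vtn* 15.6 ± 3.98 FPKM, *C1s1* 13.6 ± 1.21 FPKM and *C1ra* 5.08 ± 0.685 FPKM in Ctrl mice (SD, n = 3). The fibrinogen chains differed between libraries there. *Fgb* was 11.4, 0.923 and 8.68 FPKM in Ctrl GM and 5.05, 0.471 and 1.11 FPKM in LKO GM. *Fgg* was 9.24, 0.625 and 7.19 FPKM in Ctrl GM and 3.61, 0.241 and 1.21 FPKM in LKO GM. Ctrl 2 and LKO 2 had the lowest values of their groups for both. *Alb*, a marker of hepatocytes, was 167, 13.7 and 125 FPKM in the same Ctrl libraries and 65.6, 8.32 and 22.8 FPKM in the LKO libraries. The summed level of all 8 hepatocyte markers was 49.7 to 317 FPKM in Ctrl and 25 to 146 FPKM in LKO GM. No marker was under 0.1 FPKM in every library, but *Apob* was at 0.11 FPKM in LKO 2. *Trf* made up 28.0 of the 49.7 FPKM in Ctrl 2. The part of RNA from hepatocytes in these values was not tested. Of 15 members tested in GM, limma called 0 with adjustment (0% of all tested genes) and 0 without it (6.83% of all tested genes).

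**Figure D5:**
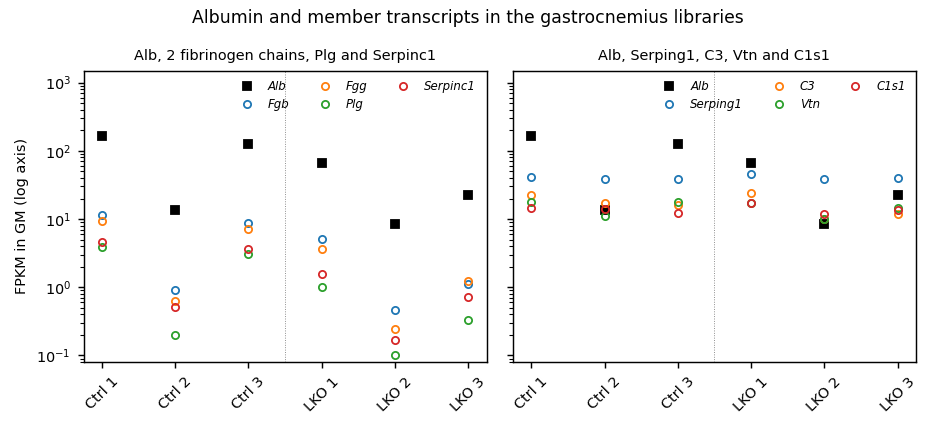
FPKM in the 6 GM libraries (log axis), with *Alb* as filled squares in both panels. *Fgb*, *Fgg*, *Plg* and *Serpinc1* (left) are low in the libraries where *Alb* is low, such as Ctrl 2 and LKO 2, while *Serping1* (right) stays between 38.1 and 46.2 FPKM.

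The difference of the LKO effect between tissues was tested in the fit of all 24 libraries, where it passed the adjusted test for 33.5% of all tested genes. Of the 38 transcripts 6 passed the filter on low values in all 4 tissues, and for 1 of them, *C8g*, the effect differed between tissues (limma adjusted p = 0.00849). It also passed with a pseudocount of 0.1 (limma adjusted p = 0.0154), with the limit that reads of *Fbxw5* cannot be told apart from its own. For the 5 other transcripts with an adjusted p under 0.05, *F11*, *Klkb1*, *Proz*, *Mbl2* and *F5*, the levels outside liver were too low in at least 1 tissue to measure an effect there, and none of the 5 passed with a pseudocount of 0.1. A difference between tissues was thus not shown for them.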

How the data were processed

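The 24 libraries were made with an unstranded TruSeq kit and read as paired ends. The authors deposited FPKM per gene on the mm10 genome in 1 joined table, and per library the deposited coverage, FPKM and TPM of each gene. Per the labels, as the submitters' processing notes, FastQC 0.11.5, Trimmomatic 0.32, HISAT2 2.0.5, Bowtie2 2.2.6, STAR 2.5.2b and StringTie 1.3.3b were used, with no role given for each. No scaling between libraries is stated, which is why directions are given on 2 scales. Read counts were not used here, so the counting error of a gene is unknown. The depth was computed from the ratio of FPKM to coverage.

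Each tissue was fitted with limma 3.58.1 (R 4.3.3, trended prior variance) on log2(FPKM + 1), LKO against Ctrl, after a filter that kept genes reaching 1 FPKM in 3 or more of the 6 libraries. Fold changes are on that scale, which understates the changes of low genes. Effects were compared between tissues by the interaction F test of a joint fit over the 24 libraries, which takes the libraries as independent. For 10 ratios within a library the groups were compared by an exact permutation test (two-sided). Only the liver fit was tried on simulated data, with equal spread in both groups and no shift of all genes. The real livers differ from that in both respects, and the other fits were not simulated. Python 3.11.15 with pandas 2.3.3 and matplotlib 3.10.9 was used besides. Alternatives were median-ratio scaling, quantile normalization, TPM, a pseudocount of 0.1, other filters, 1.5-fold limits, a replicate block, 1 fit of all libraries and leaving out each library.

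The 38 members, the lists and the tests were chosen with earlier results of these data known. Values of every liver library are given for the 6 members with the highest and the 6 with the lowest fold change, the fibrinogen chains and the pairs of ratios without overlap, and for *Plg* and *C1s1*, which were added after their values were seen. Also named are members whose call or direction differs between scales, members with at least 5 FPKM in another Ctrl tissue, and up to 4 genes of each other list in each direction, of which some are not reported here. The other transcripts named were chosen after their values were seen. Promoter windows come from RefSeq (GRCm38.p6), with no window for 8 members.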

Additional observations from a re-analysis of the deposited data

Results flagged for a closer look

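In the interaction test over all 24 libraries (limma, F test, adjusted over all 15794 genes tested) 6 of the 38 transcripts had an adjusted p under 0.05 for a difference of the LKO effect between liver, iWAT, GM and hypothalamus, as did 33.5% of all tested genes. Of the 6, *C8g* alone passed the filter on low values in all 4 tissues. Its adjusted p was 0.00849, with a log2 fold change of -0.79 in liver against 0.25, -0.34 and 0.06 in iWAT, GM and hypothalamus, where the Ctrl means were 3.14, 2.58 and 4.17 FPKM. The other 5 were *F11* (adjusted p = 3.79e-04), *Klkb1* (0.0182), *Proz* (0.0208), *Mbl2* (0.0271) and *F5* (0.0313). *Proz* passed the filter outside liver only in hypothalamus and the other 4 in no other tissue. Where levels are this low, log2(FPKM + 1) understates fold changes. *Mbl2* was still at -0.38 in GM, and *Proz* at -0.20 in iWAT and -0.23 in GM. At such levels a difference between tissues is not shown for any of these 5. With a pseudocount of 0.1 their adjusted p was 0.105, 0.115, 0.262, 0.275 and 0.132 in the same order.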

How the results depend on the processing

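Of the 38 transcripts, 14 fell and 2 rose in LKO livers on the deposited scale. Median-ratio scaling gave 22 and 0, TPM gave 9 lower, quantile normalization 1 higher, and both 1.5-fold limits 0 higher. Leaving out 1 library gave 3 to 27 lower and 0 to 3 higher. The shares of all tested genes called in liver were computed for the deposited and median-ratio scales only. The median over the 38 moved from -0.38 to -0.83 with median-ratio scaling, and the count of effects that differ between tissues from 6 to 11, and to 2 with a pseudocount of 0.1, *C8g* and *Fgg*. The counts of 0 in iWAT, GM and hypothalamus, those of levels below liver (34, 38 and 38) and the 5 ratios without overlap stayed within 1.5 times under every alternative run for them.

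Replicate numbers are shared between the groups, but deviations of same-numbered livers correlated at 0.154, 0.0276 and 0.0359, so that the numbers were not taken as pairs. With the replicate block 11 fell and 0 rose, and 6 effects differed between tissues. The shares of all tested genes under the block were not computed.

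Log2 fold changes changed sign with median-ratio scaling for *F5* (-0.0069), *F12* (-0.38), *Kng1* (-0.41), *C3* (-0.32), *Cfi* (-0.30) and *C4bp* (-0.080). Quantile normalization turned *F2* (0.13), *F12* (-0.050), *Fga* (0.057), *Fgb* (0.15), *Fgg* (0.0064), *Serpinc1* (0.19) and *Vtn* (0.012). TPM turned *C2* (0.10). Leaving out 1 library, the values ran from -0.079 to 0.13 for *Kng1*, -0.081 to 0.045 for *C2*, -0.0089 to 0.27 for *C3*, -0.0090 to 0.26 for *Cfi* and -0.75 to 0.094 for *Fga*. The sign turned without LKO 1 for *Kng1*, *C2*, *C3* and *Cfi*, without Ctrl 2 for *C2*, and without LKO 3 for *Fga*. The cause was not tested for any of these, apart from median-ratio scaling, whose divisors lower the LKO values.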
